A study of Mus musculus with 27 samples.

Results

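The endothelial genes described here are 35 genes known to mark or to act in the cells that line blood vessels. They were taken by gene symbol from a table of 16024 genes measured in mouse lung, and all 35 were found. The study sequenced RNA from 27 libraries of lungs bearing tumours and of wild-type (WT) lungs, and compared isolated stromal and tumour cells with their WT counterparts. All mice were C57BL/6. Tumour lungs came from mice that had received HKP1 cells, a lung cancer cell line, through the tail vein, and were taken at day 20 to 25 of tumour growth. No treatment is given for the WT lungs.

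Lungs were perfused and dissociated, and 4 populations were isolated by flow cytometry, with total lung cells as a further preparation. Macrophages were CD11c+CD11b+ in tumour lungs (n = 3) and CD11c+CD11b- in WT lungs (n = 2), so the gates of these groups differ. Monocytes were CD11b+Ly6C+ (n = 2 tumour, n = 2 WT) and neutrophils were CD11b+Ly6G+ (n = 3 each). Epithelial cells were Epcam+CD11b-CD11c- (n = 3 each), which in tumour lungs is a gate open to HKP1 cells too, and total lung had n = 3 each. Endothelial cells were not sorted as a group of their own, so the label of the genes could not be checked against a purified endothelial population. The labels do not say which libraries came from separate animals, and p-values measure the spread between these libraries, which may be technical.

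Endothelial cells are held together by VE-cadherin and claudin junctions, and their survival and growth are set by VEGF, angiopoietin and bone morphogenetic protein receptors. ETS and SOX factors such as Erg and Sox17 maintain their identity. In the lung they form the dense capillary bed of the alveoli, where enzymes on their surface such as angiotensin-converting enzyme act on circulating peptides.

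Levels are FPKM, a fragment count divided by the length of the transcript and by the mapped total of its library, as the authors deposited them. Between 8560 and 11420 genes reached 1 FPKM in each library, and log2 values of libraries of the same group correlated across genes at r = 0.9637 to 0.9965. Of the sort markers, Epcam averaged 91.1 FPKM in the epithelial gate of tumour lungs and 87.1 FPKM in that of WT lungs, and at most 0.937 FPKM in monocytes and neutrophils. Macrophages were not free of it, at 4.5 FPKM in tumour and 45.3 FPKM in WT lungs, the WT level being above that of WT total lung. Itgam, which encodes CD11b, averaged 127 FPKM in tumour macrophages and 1.30 FPKM in WT macrophages. Ptprc, the pan-leukocyte gene, was 18.0 FPKM in tumour and 24.8 FPKM in WT epithelial cells, against at least 139 FPKM in every other group.

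Across the 10 groups the endothelial genes had their highest mean in WT monocytes for 29 of the 35 members. The other highest groups were WT total lung for 3 members, WT epithelial cells for Esam, WT macrophages for Flt1 and WT neutrophils for Rasip1. The lowest mean was in tumour macrophages for 28 members, in tumour neutrophils for 5 and in tumour epithelial cells for 2. The median member stood at 13.2 FPKM in tumour monocytes and 44.7 FPKM in WT monocytes, and at 6.75 FPKM in tumour total lung and 33.1 FPKM in WT total lung. It was 2.63 FPKM in tumour and 14.5 FPKM in WT epithelial cells, 1.23 FPKM in tumour and 5.07 FPKM in WT neutrophils, and 0.739 FPKM in tumour and 3.46 FPKM in WT macrophages. The most abundant member was Ace in both monocyte groups, S1pr1 in both total lung groups, Vwf in both macrophage groups and Rasip1 in both neutrophil groups.

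**Figure D1:**
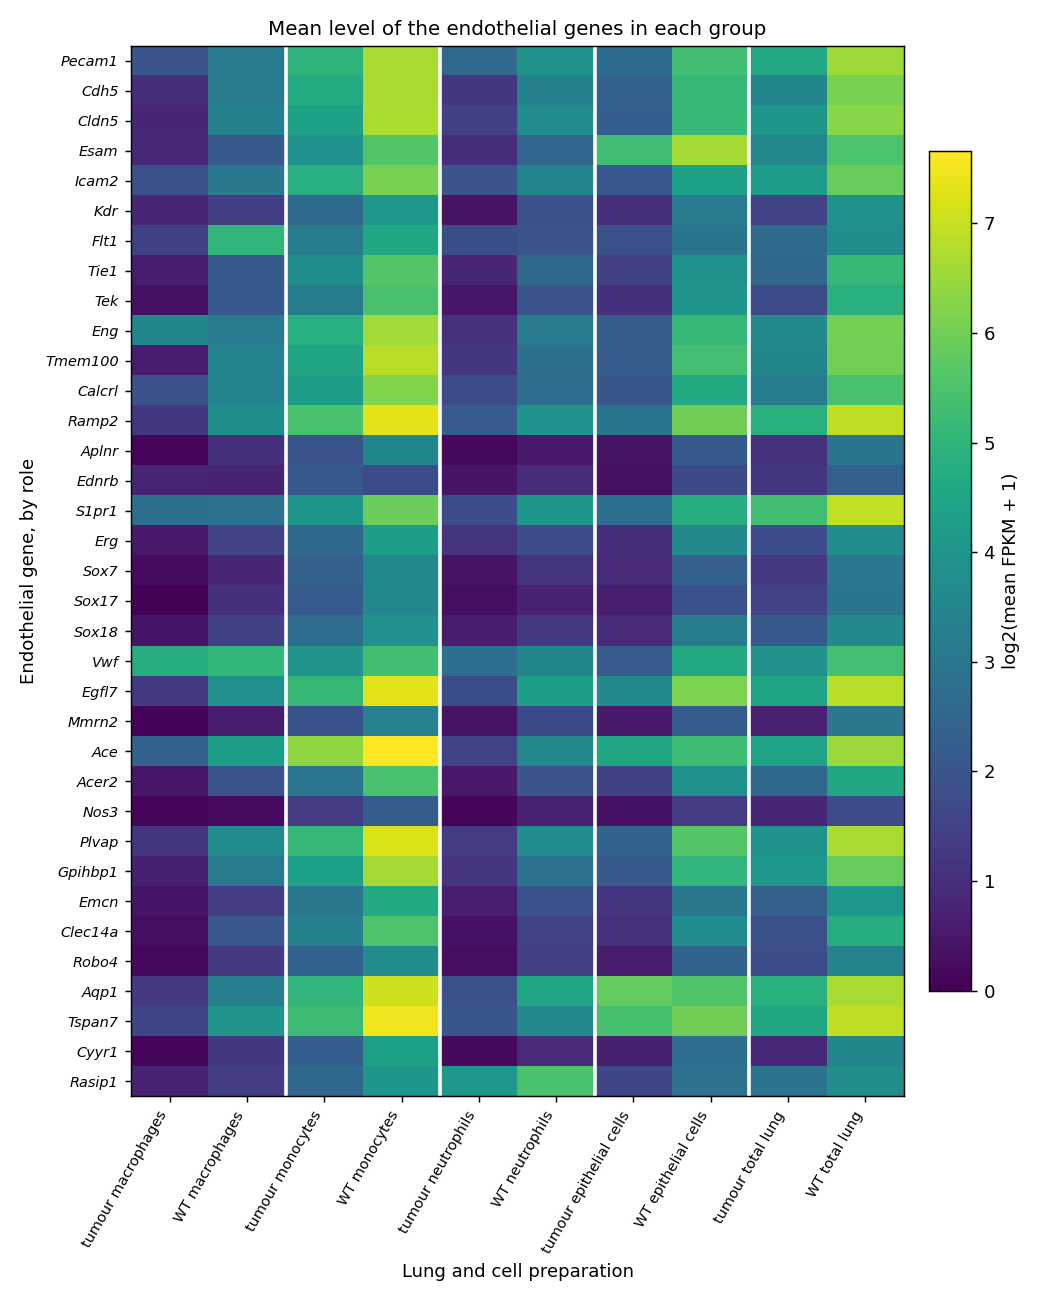
Mean level of each of the 35 endothelial genes (lines, ordered by role) in the 10 groups (columns), coloured by log2(mean FPKM + 1). Within every preparation most genes are darker in tumour than in WT lungs, and WT monocytes hold the highest mean for 29 of 35 members.

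Libraries of a group did not hold the members at one level. In WT total lung the median member was 24.2, 26.4 and 48.6 FPKM in libraries WT11, WT12 and WT13, and WT13 was the highest of the 3 for all 35 members. In tumour monocytes it was 6.41 FPKM in Tum4 and 18.0 FPKM in Tum5. Among epithelial cells, Tum11 was low, with a median member of 0.848 FPKM against 3.84 FPKM in Tum9 and 2.61 FPKM in Tum10, and WT9 was low at 9.38 FPKM against 18.6 FPKM in WT8 and 17.4 FPKM in WT10.

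In total lung all 35 endothelial genes fell in tumour lungs. Every tumour library was below every WT library for each of them, which held for 24.1% of all 16024 genes. The threshold was an adjusted p under 0.05 from limma on log2(FPKM + 1), with Benjamini-Hochberg adjustment over all genes tested, and 20.4% of all genes tested were called lower and 22.1% higher. The median change of the members was -2.06 on that log2 scale, against -0.01 over all genes tested, and the median member had 21.6% of its WT level. In bulk samples, fewer cells of a type and less RNA of a gene per cell cannot be told apart.

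Among the junction and adhesion genes, Cdh5, which encodes VE-cadherin, was 7.16, 15.8 and 8.15 FPKM in tumour total lung, against 47.6, 51.9 and 104 FPKM in WT total lung. The highest tumour library stood far below the lowest WT library. The log2 change was -2.58 ± 0.36 (SE; adjusted p = 0.00142 by limma). Pecam1, an adhesion receptor of the endothelial junction, was 20.0, 26.1 and 25.2 FPKM in tumour lungs and 77.9, 75.4 and 128 FPKM in WT lungs, a log2 change of -1.90. The tight junction gene Cldn5 changed by -2.32, the junction gene Esam by -1.91 and Icam2, a ligand of leukocyte integrins, by -1.60.

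Of the growth factor receptors, Tek, the angiopoietin receptor, showed the largest fall of all members. It was 2.06, 3.74 and 1.30 FPKM in tumour total lung, against 20.3, 22.1 and 41.9 FPKM in WT total lung (log2 change -3.10 ± 0.33, adjusted p = 0.000572 by limma). Its partner receptor Tie1 changed by -2.52 and Kdr, the main VEGF receptor, by -2.31. Kdr was evenly low in tumour lungs at 1.93, 2.10 and 1.82 FPKM, against 10.95, 11.5 and 19.8 FPKM in WT lungs. Flt1, which binds VEGF with high affinity and also occurs on some macrophages, fell less, by 1.07 on the log2 scale.

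The BMP and TGF-beta genes and the G protein coupled receptors moved with these. Eng, a co-receptor for TGF-beta family ligands, was 10.4, 14.6 and 8.95 FPKM in tumour lungs and 50.6, 46.2 and 101 FPKM in WT lungs, a log2 change of -2.38. Tmem100, an endothelial target of BMP signalling, changed by -2.48. Ramp2 and Calcrl, which together form the adrenomedullin receptor, changed by -2.22 and -2.18. The apelin receptor Aplnr changed by -1.86, and Ednrb, the endothelin B receptor, by -1.10. S1pr1, the receptor for sphingosine 1-phosphate on endothelial cells and lymphocytes, was 34.8, 26.8 and 56.8 FPKM in tumour lungs, against 102, 108 and 156 FPKM in WT lungs (log2 change -1.65 ± 0.28, adjusted p = 0.00313 by limma). T and B cell markers, which could share S1pr1 with the vessels, fell in total lung for 6 of 9 genes, with a summed level of 416 to 710 FPKM in tumour and 1010 to 1620 FPKM in WT libraries. Their part in the S1pr1 result was not tested.

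Transcription factors were low in absolute terms and fell too. Erg, an ETS factor, was 1.499, 2.97 and 3.11 FPKM in tumour lungs and 8.60, 9.37 and 19.6 FPKM in WT lungs, a log2 change of -1.88. Sox7, Sox17 and Sox18, close relatives that act in vessel development, changed by -1.68, -1.40 and -1.40. Of the secreted proteins, Egfl7 changed by -2.37, Mmrn2, a matrix partner of Clec14a, by -2.32, and Vwf, the clotting factor carrier stored in endothelial cells and platelets, by -1.48. Of the enzymes, Ace changed by -2.07, the ceramidase Acer2 by -2.07 and Nos3, the endothelial nitric oxide synthase, by -0.99.

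The other surface and signalling genes included 3 of the 4 largest falls. Clec14a, an endothelial lectin-like receptor, was 1.39, 5.06 and 1.66 FPKM in tumour total lung, against 22.9, 18.7 and 38.1 FPKM in WT total lung (log2 change -2.97 ± 0.39). Plvap, which builds the diaphragms of fenestrae and caveolae, was 8.76, 25.1 and 8.12 FPKM in tumour lungs and 82.5, 70.4 and 153 FPKM in WT lungs (log2 change -2.88 ± 0.44). Cyyr1 was 0.715, 1.13 and 0.554 FPKM in tumour lungs, against 7.46, 8.79 and 15.0 FPKM in WT lungs (log2 change -2.62 ± 0.25). Their adjusted p-values by limma were 0.00113, 0.00215 and 0.000373. Gpihbp1, which anchors lipoprotein lipase on capillaries, changed by -2.06, the tetraspanin gene Tspan7 by -2.32, the water channel gene Aqp1 by -1.90, the sialomucin gene Emcn by -1.78 and the guidance receptor gene Robo4 by -1.68. The smallest change was that of Rasip1, a Rap1 effector of the endothelium, which was 4.70, 7.96 and 7.59 FPKM in tumour lungs and 9.22, 10.8 and 18.3 FPKM in WT lungs (log2 change -0.80 ± 0.27, adjusted p = 0.0455 by limma).

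Most members tested also fell in 3 of the sorted populations. In epithelial cells 30 of 35 tested members fell and 0 rose, where 8.89% of all genes were called lower and 14.9% higher. In neutrophils 29 of 30 tested members fell and 0 rose, where 25.8% of genes were called lower and 33.3% higher. In macrophages 25 of 29 tested members fell and 0 rose, where 17.7% of genes were called lower and 20.3% higher. The members left out of a test did not reach 1 FPKM in 2 libraries of that comparison, which were 6 in macrophages and 5 in neutrophils. A member could enter a test through its WT level alone. Every tumour macrophage library was under 1 FPKM for the tested members Acer2, Clec14a, Cyyr1, Emcn, Erg, Gpihbp1, Sox17, Sox18, Tek, Tie1 and Tmem100. The same held in neutrophils for Acer2, Clec14a, Emcn, Kdr, Mmrn2, Robo4, Sox7, Sox18 and Tek. In epithelial cells it held for Aplnr, Cyyr1, Ednrb, Mmrn2, Nos3, Robo4 and Sox17. For these members the filter itself favoured a lower call, and the counts above include them. The macrophage count was 11 of 18 tested without WT1 (6.85% of genes) and 11 of 18 without WT2 (6.96%). Each of these fits left 1 WT library, so that the spread came from the tumour libraries and the lone WT library was assumed to vary like them. The epithelial count was 11 without WT8 (1.1% of genes) and 16 without WT10 (1.54%).

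In monocytes no member passed and no gene of the table did, with 0% of genes called lower and 0% higher, in a comparison of 2 libraries with 2. At an unadjusted p under 0.05, 33 of 35 members were lower and 0 higher, as were 815 of 10366 genes lower and 744 higher. The median change of the members was -1.78, against 0.00 over all genes tested. Both tumour libraries were below both WT libraries for 33 members, and over all 16024 genes this held for 19.4%. With the spread estimated from all 10 groups together, 30 members were called lower in monocytes, as were 5.9% of all genes tested. Leaving out Tum4, WT3 or WT4 gave 0 calls. Leaving out Tum5, the tumour library of higher levels, gave 30 members (1.47% of genes), but Tum4 then stood alone, with a spread borrowed from the WT libraries, so this count adds no support.

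**Figure D2:**
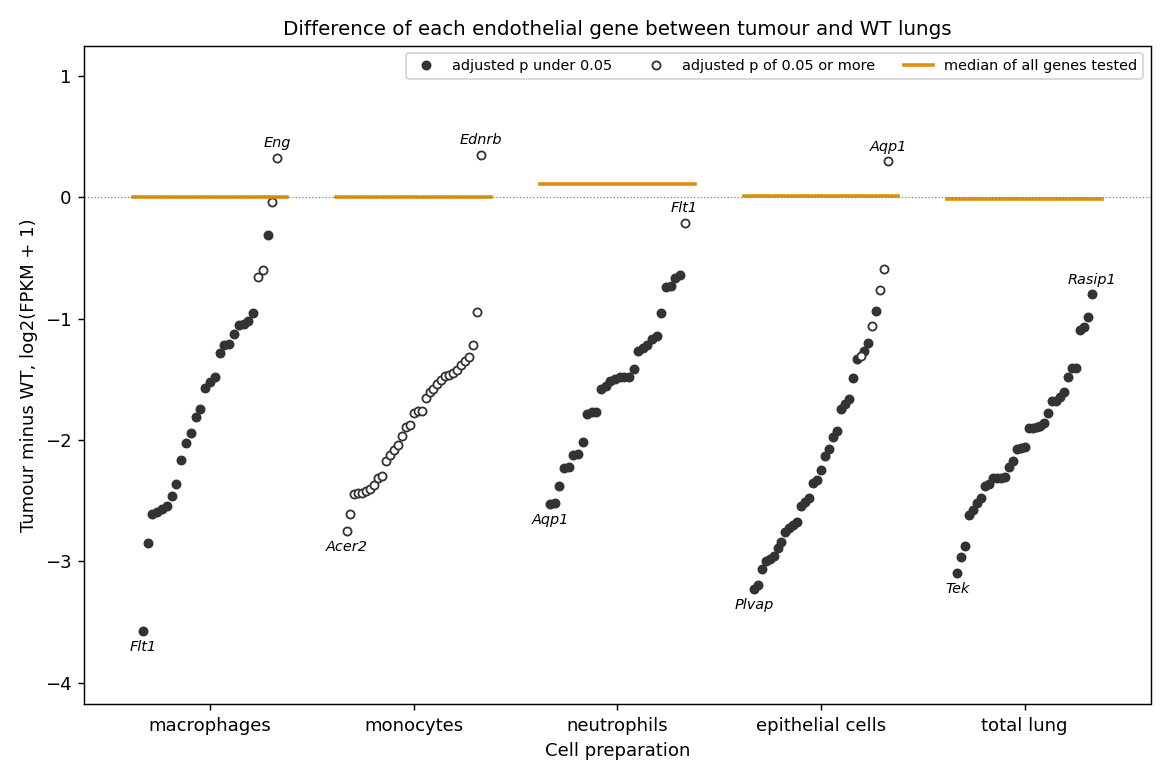
Difference between tumour and WT lungs of each endothelial gene tested (points, sorted by size) in each preparation, on the log2(FPKM + 1) scale, with filled points for an adjusted p under 0.05 by limma and an orange line for the median of all genes tested. Members sit mostly between -1 and -3 in every preparation while the gene medians lie near 0, and all monocyte points are open.

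Within the epithelial gate the largest falls were those of Plvap, Tmem100, Ramp2 and Cldn5. Plvap was 6.54, 5.58 and 1.08 FPKM in tumour epithelial cells, against 59.0, 20.8 and 63.9 FPKM in WT epithelial cells (log2 change -3.23 ± 0.59, adjusted p = 0.0144 by limma). Tmem100 was 5.29, 5.21 and 0.972 FPKM in tumour cells and 51.8, 23.6 and 44.6 FPKM in WT cells, a log2 change of -3.20. Ramp2 and Cldn5 changed by -3.07 and -3.00. Aqp1 had the highest mean of the members in tumour epithelial cells, at 55.0 FPKM. Esam was the most abundant member in WT epithelial cells, at 40.9, 58.7 and 15.5 FPKM in tumour cells and 100, 78.2 and 114 FPKM in WT cells. Its log2 change of -1.49 ± 0.44 had an adjusted p of 0.0481 by limma, and it did not pass without WT8, WT9, WT10 or Tum9 in turn, with no filter on low values, with a pseudocount of 0.1 or with quantile normalization.

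Among neutrophils, Aqp1 was 2.04, 2.47 and 3.65 FPKM in tumour lungs, against 28.7, 26.2 and 10.8 FPKM in WT lungs (log2 change -2.53 ± 0.33, adjusted p = 0.000304 by limma). Egfl7 changed by -2.52 and Plvap by -2.38. S1pr1 was 3.08, 1.81 and 2.64 FPKM in tumour neutrophils and 15.0, 12.6 and 18.7 FPKM in WT neutrophils, a log2 change of -2.23. Flt1 was the tested member that did not pass, at 1.57, 3.94 and 2.16 FPKM in tumour and 4.05, 3.46 and 1.76 FPKM in WT neutrophils, with overlapping libraries.

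For macrophages the largest falls were those of Flt1, Tmem100, Egfl7 and Ramp2, with log2 changes of -3.58, -2.85, -2.61 and -2.60. Vwf, the most abundant member there, was 26.1, 26.3 and 26.6 FPKM in tumour and 34.97 and 30.8 FPKM in WT macrophages. This small difference, -0.31 ± 0.10 on the log2 scale, had an adjusted p of 0.0478 by limma, and leaving out Tum1, Tum2, WT1 or WT2, or fitting all 10 groups together, ended the call. Of 12 platelet and megakaryocyte markers, cells that share Vwf, 3 were high enough to test in macrophages, and those 3 rose. Pf4 made up most of the list's level, at 67.2 to 76.8 FPKM in tumour and 1.61 to 4.03 FPKM in WT macrophages, and the other 11 genes summed to 5.28 to 7.02 FPKM in tumour and 2.61 to 3.67 FPKM in WT libraries. Itga2b, the platelet integrin, was not tested, at a mean of 0.518 FPKM in tumour and 0.635 FPKM in WT macrophages. Gp6 was listed at 0 in every macrophage library, and the part of these cells in the Vwf values was not tested.

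In monocytes the 4 members with the largest differences were Acer2, Tmem100, Tek and Clec14a. Acer2 was 2.26 and 11.7 FPKM in tumour monocytes, against 52.0 and 34.4 FPKM in WT monocytes (log2 change -2.75 ± 0.63, adjusted p = 0.187 by limma). Tek was 3.31 and 13.4 FPKM in tumour and 52.1 and 33.8 FPKM in WT monocytes. Ace, the most abundant member, was 43.4 and 121 FPKM in tumour monocytes and 222 and 180 FPKM in WT monocytes. Tum5 was at least 2 times Tum4 for 29 of the 35 members, so the spread inside the tumour group was wide.

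Several members departed from the common pattern in some populations. Flt1 was 32.3 and 32.0 FPKM in WT macrophages, its highest level in any group, and only 1.30, 2.79 and 1.46 FPKM in tumour macrophages (adjusted p = 6.38e-05 by limma). Eng was 10.5, 11.9 and 8.77 FPKM in tumour macrophages, against 8.51 and 7.56 FPKM in WT macrophages. Its log2 change of 0.33 did not pass (adjusted p = 0.131 by limma), although without Tum3 it was called higher in tumour. S1pr1 in macrophages was 7.23, 6.56 and 4.63 FPKM in tumour and 5.26 and 7.39 FPKM in WT lungs, with overlapping libraries.

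Aqp1 in epithelial cells was 52.5, 39.9 and 72.5 FPKM in tumour lungs and 52.1, 25.6 and 60.8 FPKM in WT lungs, and the groups overlapped (log2 change 0.29, adjusted p = 0.551 by limma). Without WT9 its sign turned, to -0.075. Tspan7, Ace, Flt1 and Sox7 were the other members that did not pass there, with log2 changes of -0.59, -0.77, -1.06 and -1.31. Tum11 was the lowest tumour epithelial library for 30 members but the highest for Aqp1 and Tspan7, at 72.5 and 57.8 FPKM. Ednrb in monocytes was 4.22 and 2.48 FPKM in tumour lungs, against 2.36 and 2.35 FPKM in WT lungs, and did not pass. In macrophages Ednrb was too low to be tested, and its tumour mean was 103% of its WT mean.

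**Figure D3:**
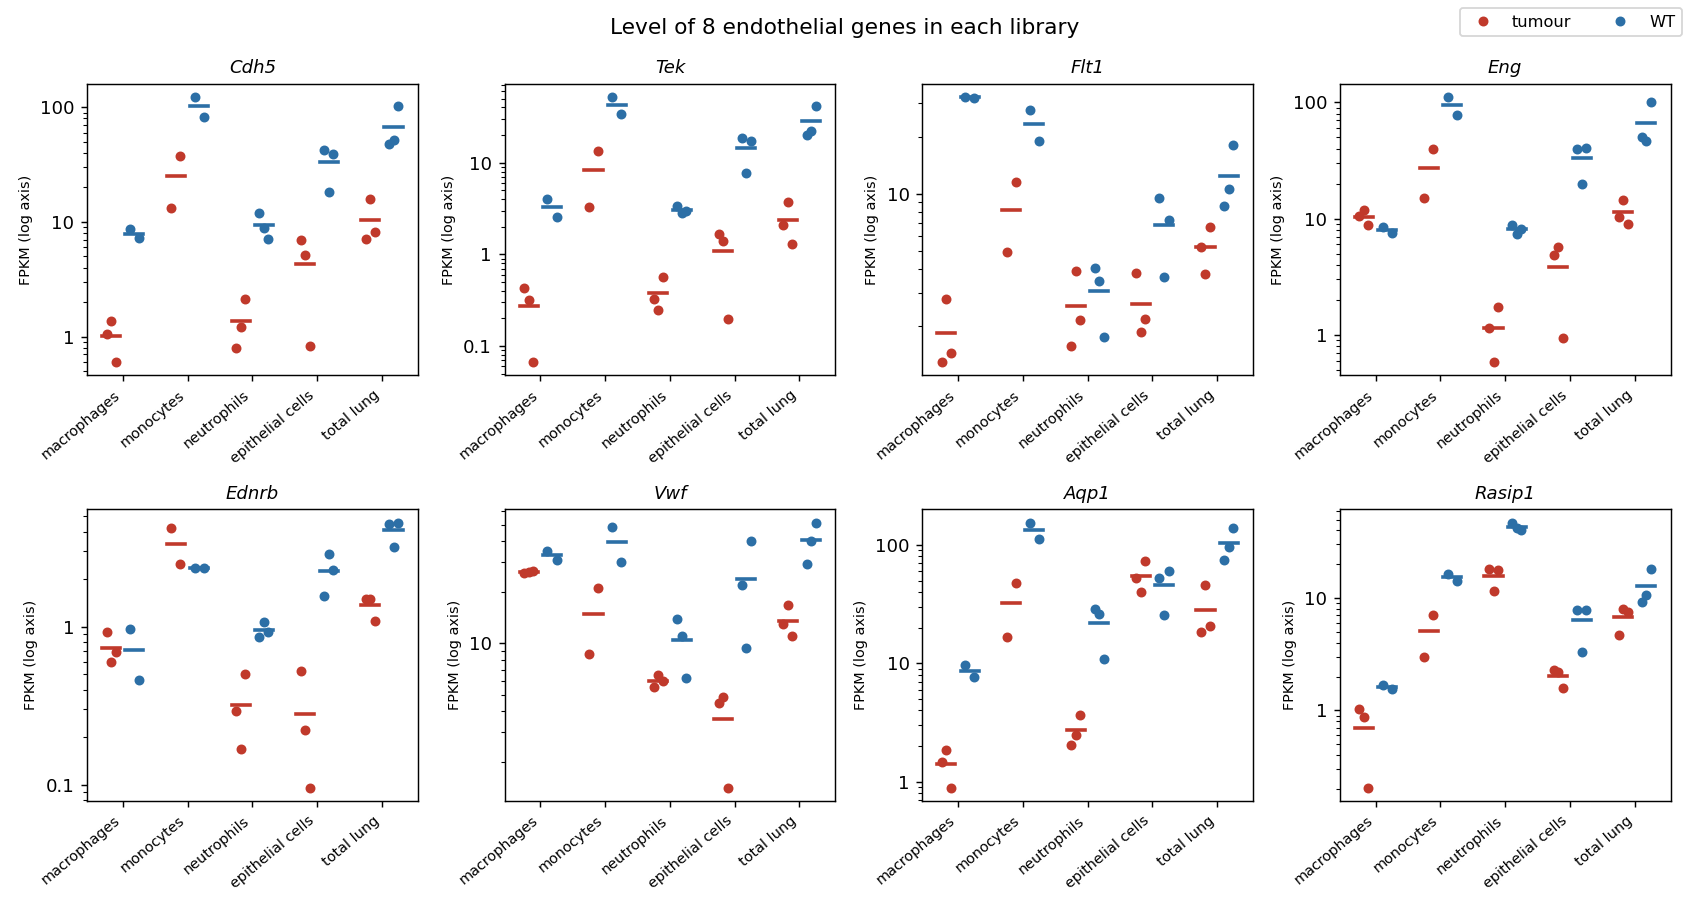
FPKM of 8 endothelial genes in every library, on log axes, with tumour (red) left of WT (blue) in each preparation and a bar for each group mean. Cdh5 and Tek are lower in every tumour group, while Eng in macrophages, Ednrb in macrophages and monocytes and Aqp1 in epithelial cells do not share that direction, Flt1 peaks in WT macrophages and Rasip1 in WT neutrophils.

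Whether the tumour effect in a sorted population differed from that in total lung was tested by an interaction term in limma. In macrophages it differed for 10 of 35 members, where 40.6% of all genes were called, and in neutrophils for 10 members, where 41.9% of genes were called. In monocytes it differed for 1 member (3.88% of genes) and in epithelial cells for 1 member (10.7% of genes). These counts were no larger a share than the background, and a pseudocount of 1 compresses the fall of a gene that is already low in sorted cells. With a pseudocount of 0.1 the neutrophil count was 1. The largest differences in macrophages were those of Eng (2.71 ± 0.40, adjusted p = 0.000414) and Flt1 (-2.51 ± 0.40, adjusted p = 0.00072), where a positive value means a weaker fall than in total lung.

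Each sorted population was set beside total lung of the same kind of lung. FPKM is scaled within each library, so a share here is a ratio of levels. It does not give the part of the lung's endothelial transcripts that a population carried. Shares were computed for members of at least 1 FPKM in total lung, which were 32 in tumour and 35 in WT lungs. In macrophages the median member had 9.84% of its total lung level in tumour lungs and 12.2% in WT lungs. In neutrophils it had 13.2% in tumour and 13.8% in WT lungs, and in epithelial cells 34.2% in tumour and 51.8% in WT lungs. In monocytes it had 173% in tumour and 145% in WT lungs. Members lay close together in WT lungs, where the middle 50% of them spanned 10.9 to 15.4% in macrophages, 127 to 156% in monocytes, 11.4 to 18.5% in neutrophils and 45.4 to 57.6% in epithelial cells.

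Called at an adjusted p under 0.05, the members were lower than in total lung for 29 of 35 in tumour macrophages (40% of all genes), 31 in tumour neutrophils (71.9%) and 20 in tumour epithelial cells (26.2%). In WT lungs they were lower for 33 in macrophages (43.5%), 34 in neutrophils (72.8%) and 25 in epithelial cells (33.6%). In monocytes 1 tumour member was lower (26.2% of genes) and 8 higher (6.41%), while 2 WT members were lower (30.4%) and 2 higher (12%). The count of 8 rests on the tumour monocyte libraries: it was 14 without Tum4 and 1 without Tum5. Without WT13, 17 WT members were higher in monocytes, and the epithelial count was 9 in WT lungs. It was 10 without WT9. The share of all genes is not given for the runs with a library left out, so their counts were not set against it.

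S1pr1 was lower in all 4 sorted populations of both kinds of lung, the sole such member in tumour lungs (2.29% of all genes) and with Ednrb 1 of 2 in WT lungs (7.66%). Its share of total lung was 15.6% in macrophages, 39.9% in monocytes, 6.36% in neutrophils and 15.2% in epithelial cells of tumour lungs. In WT lungs it was 5.17% in macrophages, 49.6% in monocytes, 12.6% in neutrophils and 21.7% in epithelial cells. The total lung preparation had the highest level of S1pr1 in both kinds of lung.

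Members above total lung in at least 1 sorted population numbered 12 in tumour lungs (52.5% of all genes) and 5 in WT lungs (54.8%). Rasip1 had 234% of its total lung level in tumour neutrophils and 339% in WT neutrophils. Its level was 18.2, 11.6 and 17.6 FPKM in tumour neutrophils and 46.9, 42.1 and 40.6 FPKM in WT neutrophils, against a total lung mean of 6.75 FPKM in tumour and 12.8 FPKM in WT lungs (adjusted p = 0.003 and 6.81e-05 by limma). No other member counted exceeded 48.7% of total lung in neutrophils of either lung. Esam had 357% in tumour and 223% in WT epithelial cells, and both passed.

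In monocytes Ace had 407% of its total lung level in tumour and 224% in WT lungs, and both passed. Cyyr1 passed in both as well, and Aplnr, Ednrb, Kdr, Mmrn2, Sox7 and Tek passed in tumour monocytes alone. By the interaction test the step from total lung to monocytes differed between tumour and WT lungs for Ednrb, by 1.44 on the log2 scale (adjusted p = 0.0318 by limma). For Aplnr, Kdr, Mmrn2, Sox7 and Tek that difference did not pass (adjusted p = 0.413 to 0.770 by limma). Flt1 had 259% of its total lung level in WT macrophages and 35.2% in tumour macrophages. Vwf had 193% in tumour macrophages and 81.6% in WT macrophages, and the tumour call (adjusted p = 0.0321 by limma) ended without any 1 of the tumour macrophage libraries. Aqp1 had 194% and Tspan7 184% in tumour epithelial cells, against 44.9% and 53.1% in WT epithelial cells. Of these, Aqp1 passed in tumour cells (adjusted p = 0.0397 by limma), a call that ended without Tum9, Tum11, Tum12 or Tum14 in turn and with a pseudocount of 0.1.

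**Figure D4:**
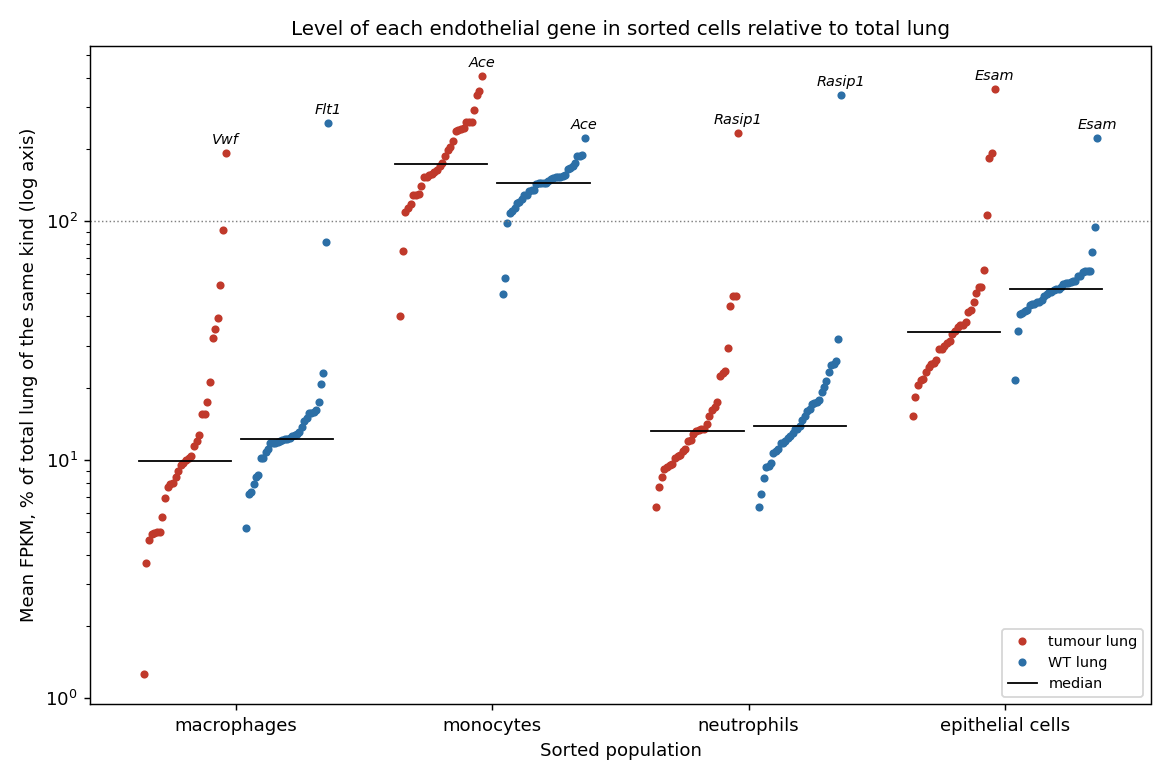
Mean FPKM of each endothelial gene in a sorted population as a percentage of its mean in total lung of the same kind of lung (points; log axis), tumour left of WT, with a bar for the median and a dotted line at 100%. Members with under 1 FPKM in total lung are left out. Macrophages and neutrophils lie near 10%, epithelial cells near 34 to 52% and monocytes above 100%, and the named points are the highest of each group.

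Transcripts of other cell types, which the gates should not hold, moved in both directions in the sorted tumour populations. Of all genes tested, 17.7% in macrophages, 25.8% in neutrophils and 8.89% in epithelial cells were called lower. Called higher were 20.3%, 33.3% and 14.9%. Single calls in a short list are no more than this background. Alveolar type II markers fell in tumour macrophages for 6 of 9 tested genes and rose for 2, with a summed level of 150 to 383 FPKM in tumour and 649 to 857 FPKM in WT libraries. Most of that difference was Sftpc, and the other 8 genes summed to 107 to 205 FPKM in tumour and 163 to 208 FPKM in WT macrophages, which overlap. In tumour neutrophils these markers fell for 9 of 9, and without Sftpc they summed to 44.4 to 60.4 FPKM in tumour and 184 to 497 FPKM in WT libraries. Alveolar type I markers fell for 5 of 6 and rose for 1 in macrophages, and fell for 4 of 6 in neutrophils. In the epithelial gate, where such cells belong, they fell for 3 of 8, at 710 to 1550 FPKM in tumour and 1820 to 2350 FPKM in WT libraries.

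T and B cell markers fell in tumour neutrophils for 7 of 9 genes, at 17.4 to 69.6 FPKM in tumour and 184 to 267 FPKM in WT libraries, in tumour epithelial cells for 5 of 9, at 57.8 to 64.9 FPKM in tumour and 102 to 198 FPKM in WT libraries, and in tumour macrophages for 1 of 8. Pericyte and smooth muscle markers fell in tumour neutrophils for 6 of 7 genes and rose for 1, at 21.3 to 36.0 FPKM in tumour and 58.0 to 137 FPKM in WT libraries. They fell for 1 of 4 in macrophages, and for 0 of 7 in epithelial cells, where 1 rose. Fibroblast markers fell for 1 of 8 and rose for 1 in macrophages, fell for 6 of 9 and rose for 1 in neutrophils, and fell for 3 of 9 and rose for 1 in epithelial cells. The fibroblast sums in macrophages were 358 to 466 FPKM in tumour and 144 to 211 FPKM in WT libraries. Epithelial markers rose for 4 of 6 in tumour neutrophils, and in macrophages 2 of 6 fell and 2 rose. The epithelial sums in macrophages were 40.3 to 49.3 FPKM in tumour and 431 to 466 FPKM in WT libraries. Leukocyte markers fell for 0 of 9 and rose for 1 in epithelial cells, at 224 to 509 FPKM in tumour and 207 to 320 FPKM in WT libraries. In monocytes no gene passed. There the alveolar type II markers without Sftpc summed to 156 to 237 FPKM in tumour and 291 to 679 FPKM in WT libraries. Fibroblast markers summed to 445 to 737 FPKM in tumour and 342 to 391 FPKM in WT monocytes. T and B cell markers summed to 190 to 215 FPKM in tumour and 191 to 279 FPKM in WT monocytes. Epithelial markers summed to 62.5 to 88.0 FPKM in tumour and 12.5 to 16.7 FPKM in WT monocytes. The part of carried-over cells or free RNA in the endothelial values of sorted populations was not tested.

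Total lung changed in other cell types besides, where 20.4% of all genes were called lower and 22.1% higher. Epithelial markers rose for 6 of 7 genes there, at 492 to 685 FPKM in tumour and 107 to 150 FPKM in WT libraries, and leukocyte markers rose for 5 of 9, at 3450 to 5210 FPKM in tumour and 2580 to 2680 FPKM in WT libraries. Alveolar type II markers fell for 8 of 9, and these 8 summed to 207 to 1010 FPKM in tumour and 3260 to 5370 FPKM in WT libraries. The ninth, Sftpc, is left out of these sums, since it was listed at 0 in every WT total lung library, which in this table can be a failed estimate. Fibroblast markers fell for 8 of 10 genes and rose for 1, at 327 to 563 FPKM in tumour and 529 to 1450 FPKM in WT libraries, and alveolar type I markers for 4 of 8, at 104 to 149 FPKM in tumour and 301 to 382 FPKM in WT libraries. Red cell markers, of which 2 were in the table, did not pass, at 17.3 to 119 FPKM in tumour and 9.11 to 106 FPKM in WT libraries. The part of these shifts in cell makeup in the fall of the endothelial genes was not tested.

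Other genes of endothelial cells, 77 in the table, moved less evenly than the members. In total lung 48 of 72 tested fell (66.7%) and 11 rose, with a median change of -1.07 on the log2 scale. Of all genes tested there, 20.4% were called lower and 22.1% higher, so the rises were a smaller share than the background. The receptor phosphatase gene Ptprb was 2.36, 5.20 and 2.44 FPKM in tumour lungs and 21.8, 25.5 and 43.5 FPKM in WT lungs, a log2 change of -2.85. The lung vascular factor Foxf1 changed by -2.84 and the arterial semaphorin gene Sema3g by -2.74. Among those that rose were Procr, Fabp4, Stab1 and Vcam1, which other cells express too, by 2.49, 2.46, 1.47 and 1.01 on the log2 scale.

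In the sorted populations, 30 of 54 tested genes of this list fell and 9 rose in macrophages, 45 of 62 fell and 4 rose in neutrophils, and 31 of 65 fell and 9 rose in epithelial cells. The falls were 55.6%, 72.6% and 47.7% of those tested, against 17.7%, 25.8% and 8.89% of all genes. The rises were in each case a smaller share than the 20.3%, 33.3% and 14.9% of all genes called higher. In monocytes 0 of 72 passed. Stab1, a scavenger receptor, was 83.9, 66.8 and 109 FPKM in tumour macrophages, against 0.875 and 1.23 FPKM in WT macrophages (log2 change 5.39), and Vcam1 changed by 5.04 in the same cells. Car4, a carbonic anhydrase of lung capillaries, was 17.1, 17.6 and 8.78 FPKM in tumour macrophages and 293 and 357 FPKM in WT macrophages (log2 change -4.45). Its WT macrophage mean of 325 FPKM was its highest in any group. Its mean was 78.9 FPKM in tumour and 27.4 FPKM in WT total lung, and it rose by 3.56 in tumour neutrophils. Cd93 and Thbd fell in tumour neutrophils by 2.91 and 2.87 on the log2 scale. Vcam1 rose by 3.91 in tumour epithelial cells, while Foxf1 and Lyve1 changed by -2.96 and -2.71.

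Ligands of the endothelial receptors showed both directions, and their small counts stand beside the shares of all genes given above. Of 12 in the table, 3 of 4 tested rose in tumour macrophages and 0 fell, 4 of 7 fell and 1 rose in neutrophils, 3 of 10 rose and 0 fell in epithelial cells, 7 of 10 fell and 1 rose in total lung, and 0 of 9 passed in monocytes. Vegfa, the main ligand of Kdr and Flt1, was 176, 173 and 155 FPKM in tumour macrophages, against 8.24 and 7.75 FPKM in WT macrophages (log2 change 4.23 ± 0.10, adjusted p = 2.06e-06 by limma). In total lung Vegfa was 159, 180 and 204 FPKM in tumour and 70.0, 83.0 and 111 FPKM in WT lungs, the single ligand that rose there (log2 change 1.05). Pgf, which binds Flt1, rose by 2.57 in tumour macrophages. Edn1, the ligand of Ednrb, changed by -1.62 in total lung and by 1.32 in neutrophils. Slit3 changed by -2.60 and Figf, a further VEGF, by -1.54 in total lung, and Vegfc and Slit2 rose by 1.39 and 1.27 in tumour epithelial cells.

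The members lie on 15 chromosomes, with at most 5 on one. Promoter sequence from RefSeq (build GRCm38.p6) was matched for 19 of the 35 members, with 24 start sites in all. The letters AGGAAG, a core that ETS factors such as Erg bind, were searched on both strands in the 250 bases before each start. They were found in 13 of 24 member promoters (54.2%), belonging to 12 members, against 29.5% of 32851 mouse promoters. The letters AGATAA of GATA factors were in 4.17% of member promoters, against 9.99% of all, and ACAAAG of SOX factors in 12.5%, against 16.5%. A match describes these letters and is not evidence of binding.

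The 150 bases before the start are shown for 4 members whose tumour effect differed from that in total lung by the interaction test: Eng and Flt1, with the largest differences in macrophages, and Aqp1 and Ednrb, which alone among the members differed in epithelial cells and in monocytes. Each is written 5′ to 3′ on the strand of the gene, with AGGAAG or its complement CTTCCT in capitals. The windows are chr5:147726012-147726161 (minus strand) for Flt1, chr2:32646445-32646594 (plus) for Eng, chr6:55336149-55336298 (plus) for Aqp1 and chr14:103843702-103843851 (minus) for Ednrb. The Aqp1 window is uncertain: the GENCODE annotation starts this gene further on, at 55336432, and its transcripts do not hold the bases that follow the RefSeq start.
Flt1: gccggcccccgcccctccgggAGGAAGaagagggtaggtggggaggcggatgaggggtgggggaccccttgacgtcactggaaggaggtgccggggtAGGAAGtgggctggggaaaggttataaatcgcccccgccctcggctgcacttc
Eng: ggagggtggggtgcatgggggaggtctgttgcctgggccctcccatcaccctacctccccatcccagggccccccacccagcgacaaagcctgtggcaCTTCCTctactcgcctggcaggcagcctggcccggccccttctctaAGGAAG
Aqp1: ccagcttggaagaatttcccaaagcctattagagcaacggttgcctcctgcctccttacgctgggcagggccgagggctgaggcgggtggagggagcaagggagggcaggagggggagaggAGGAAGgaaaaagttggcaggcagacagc
Ednrb: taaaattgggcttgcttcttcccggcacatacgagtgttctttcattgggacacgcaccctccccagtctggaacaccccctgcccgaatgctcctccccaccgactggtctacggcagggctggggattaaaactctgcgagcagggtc
Flt1 and Eng each hold 2 matches in this window, Aqp1 holds 1 and Ednrb holds 0. No match says only that these letters are not in the window.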

How the data were processed

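RNA libraries were made from perfused, dissociated and sorted lungs with TruSeq chemistry, per the labels' protocols. Per the submitters' processing notes, the authors used CASAVA 1.8.2, TopHat2, Cufflinks and Cuffdiff with builds mm10 and GRCm38, and the deposited values are FPKM. All 27 value columns were matched to a library by title. Counts were not analysed here. A relative depth read from the spacing of values under 0.2 FPKM ran from 0.624 to 1.58 and is rough, so no counting interval is given. Exact zeros can be failed estimates: 5 members were listed at 0, each in 1 library.

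The values tested were log2(FPKM + 1), a scale that understates the change of low genes. Genes of at least 1 FPKM in at least 2 libraries compared were fitted by limma 3.58.1 (trend, empirical Bayes) in R 4.3.3, with only the groups compared in the fit. Adjustment followed Benjamini and Hochberg over all genes tested, and an adjusted p under 0.05 was called. Sorted populations were set against total lung, and tumour effects were compared by an interaction term. Figures were drawn with matplotlib 3.10.9. The fit was tested on simulated data with 200 planted genes. Of changes of 1 on the log2 scale it recovered 80% in total lung, 63% in epithelial cells, 80% in neutrophils, 70% in macrophages and 0% in monocytes. Of changes of 2 it recovered 53% in monocytes. These rates cover the planted genes as a set and were not split by level. They need not hold for members of low level, as most were in macrophages and neutrophils.

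The members and all gene lists were chosen with earlier results of these data known, so lists are described by counts and medians, with no test over a list. Found in the table were 77 of 79 other endothelial genes, 12 of 13 ligands, 12 platelet and megakaryocyte, 9 of 10 leukocyte, 9 of 10 alveolar type II, 8 alveolar type I, 10 fibroblast, 10 pericyte and smooth muscle, 2 of 8 red cell, 9 of 10 T and B cell and 7 epithelial markers. Of the members that passed in a comparison and had at least 5 FPKM in the higher group, the 4 of largest change were named, and the member of the highest level. Added were the extreme shares of total lung, members above total lung, the 3 largest differences of tumour effects, the 3 largest changes of other endothelial genes and of ligands, and members chosen after their values were seen because they departed from the rest or fill a role. Titles number the libraries in sequence across preparations, and the numbers do not name animals. Alternatives were other pseudocounts (0.1 and 5), filters, scalings and fits, and each library left out in turn.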

Additional observations from a re-analysis of the deposited data

Results flagged for a closer look

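A few members had a tumour effect in a sorted population that differed from the effect in total lung by the interaction test of limma. The difference is the log2 change in the sorted population minus that in total lung. In macrophages it was 2.71 for Eng, -2.51 for Flt1 and 1.78 for Mmrn2. The macrophage gates differ between tumour and WT lungs, which cannot be told apart from the tumour effect in these cells. Mmrn2 stood at 0.47 and 0.56 FPKM in WT macrophages, and its difference did not pass with a pseudocount of 0.1.

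In neutrophils the difference was 1.93 for Cyyr1, 1.8 for Clec14a and 1.54 for Tek, each low in WT neutrophils. The calls of Clec14a and Tek ended with a pseudocount of 0.1. In monocytes it was 1.44 for Ednrb, a call that ended when any 1 of 6 libraries was left out. In epithelial cells it was 2.19 for Aqp1, and this call too ended without any 1 of 6 libraries.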

How the results depend on the processing

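No member named by the rule reversed its direction under any alternative run. Among all members tested in tumour against WT, 3 that had not passed turned sign. S1pr1 in macrophages (log2 change -0.040) was 0.122 with the replicate block or without Tum3, and 0.172 without WT2. The first 2 are not separate checks, since Tum3 has no partner in the block. Flt1 in neutrophils (-0.21) was 0.0235 with the block, and Aqp1 in epithelial cells (0.295) was -0.075 without WT9. None of these values passed. The count of members lower in tumour lungs was 25 in macrophages, 0 in monocytes and 29 in neutrophils. It became 15 in macrophages (17.9% of genes) and 17 in neutrophils (28.7%) with a filter of 5 FPKM, under which 17 members were tested in each. In a fit of all 10 groups it was 30 in monocytes (5.9%). Where a library left out leaves a group of 1 (WT macrophages, monocytes), the lone library is assumed to vary like the other group. With one library left out it ranged from 11 to 25 in macrophages, 0 to 30 in monocytes and 11 to 31 in epithelial cells, and in macrophages 0 to 1 members were higher. In total lung it ranged from 30 to 34 (14 to 18.7% of genes), and in neutrophils from 27 to 29 (22.7 to 25%). The share of genes called lower in these runs was 0.893 to 15.3% in epithelial cells. It was 13.6 to 21.2% in macrophages with 1 tumour library left out. The cause of these moves was not tested. The filter of 5 FPKM left fewer members to test, while all 35 stayed tested in epithelial cells and monocytes with a library left out.

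Counts of members above total lung in at least 1 population of tumour lungs were 5 with a filter of 5 FPKM, 4 with a pseudocount of 0.1 and 19 with quantile normalization, and 6 to 19 with one library left out. In WT lungs they ranged from 3 to 19. For tumour monocytes alone they were 1, 2 and 15 under the same 3 settings, and 1 to 14 with one library left out. For WT monocytes they were 1 with a pseudocount of 0.1, with no filter or in a fit of all 10 groups, 5 with a pseudocount of 5, 4 with quantile normalization or upper-quartile scaling, and 0 to 17 with one library left out. Members lower than total lung in WT monocytes, and in all 4 WT populations, numbered 1 with a filter of 5 FPKM, a pseudocount of 0.1, quantile normalization or upper-quartile scaling, and 1 to 2 with one library left out. In tumour monocytes, and in all 4 tumour populations, they numbered 0 to 1. Quantile normalization gave 19 lower members in tumour macrophages and 7 in tumour neutrophils. With one library left out, 13 to 24 were lower in tumour epithelial cells and 9 to 27 in WT epithelial cells. The alternatives for single populations against total lung were chosen after seeing the data. The counts against total lung are given without the share of all genes in the same run. In the main fit 52.5% of all genes in tumour and 54.8% in WT lungs were above total lung in at least 1 population. A count of 19 members can therefore not be read as larger than the background.

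Members whose tumour effect differed from total lung numbered 19 in macrophages and 19 in neutrophils with a pseudocount of 5. The share of all genes is not given for the runs of this paragraph. In the main fit it was 40.6% in macrophages and 41.9% in neutrophils, so these counts were not shown to exceed the background. In neutrophils there were 1 with a pseudocount of 0.1, 3 with upper-quartile scaling and 6 in a fit of all 10 groups. In monocytes there were 0 with a filter of 5 FPKM and 0 to 1 with one library left out, and in epithelial cells 2 in a fit of all 10 groups and 0 to 3 with one library left out. Median shares of total lung with one library left out were 8.20 to 13.1% in tumour macrophages, 10.8 to 16.6% in WT macrophages, 117 to 196% in WT monocytes and 12.2 to 18.8% in WT neutrophils.

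With the number of the title as a replicate block, 14 members were lower in tumour epithelial cells (0.761% of all genes tested) and 25 in macrophages (19.6%). The count was 28 in neutrophils (17.8%) and 35 in total lung (9.69%). The block set a tumour library beside the WT library of the same number and preparation. These come from different mice and the number names no animal, so the pairing is arbitrary. A library with no partner of its number adds nothing to the tumour difference. Esam in epithelial cells did not pass with the block (log2 change -0.94). No paired fit could be had for monocytes, whose groups share 1 number.

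Limits are few libraries per group, unequal macrophage gates, no sorted endothelial cells and no counts. Calls near the threshold, such as Vwf in macrophages, Esam in epithelial cells and Rasip1 in total lung, are the least firm. Of the values of named members under alternatives, 809 kept their side of the threshold, 98 no longer passed and 10 newly passed.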
